A study of Mus musculus with 4 samples.

Results

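The adaptors and kinases that carry a Toll-like receptor signal to Traf6 and Map3k7 were examined in peritoneal macrophages from wild type and CD13 knockout mice. CD13 is a membrane aminopeptidase, and its gene is Anpep. The group was a list of 10 genes, chosen by name: Myd88, Tirap, Ticam1, Ticam2, Irak1, Irak2, Irak3, Irak4, Traf6 and Map3k7. Every probe whose symbol in the platform annotation was on that list was taken. This gave 23 of the 45281 probes on the array, which stood for 9 of the 19057 genes named there; no probe carried the symbol Irak4 in the annotation used here, so the expression of Irak4 was not analysed.

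Both groups were C57BL/6 mice, one wild type and the other labelled CD13 knock out, with 2 arrays each; age, sex, the number of mice per array and how the allele was made are not given in the sources used here. The cells are labelled peritoneal macrophages, and the study's text calls them resting and also mentions macrophages grown from bone marrow. Biotin-labelled RNA was hybridised to Illumina BeadChips, where beads carrying a gene-specific oligonucleotide report each transcript as an intensity. Since no label ties an array to its own mouse or culture, p-values here reflect the spread among arrays alone, which may be technical.

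Toll-like receptors recognise microbial products, and their cytoplasmic domains recruit adaptor proteins. Myd88 serves all of them except Tlr3, as well as the interleukin-1 receptor family, and its death domain assembles the IRAK proteins, which activate the ubiquitin ligase Traf6. Traf6 in turn activates the kinase Map3k7, also called TAK1, which feeds the NF-kappaB and MAP kinase cascades. Ticam1, also called TRIF, serves Tlr3 and, through Ticam2, endosomal Tlr4, and opens the branch to type I interferon. In macrophages this path sets the output of inflammatory cytokines and is restrained by Irak3 and several ubiquitin-editing enzymes.

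The 250 bases before the annotated transcription start are shown for 4 members: Irak2 and Irak3, which had the lowest changes below, and Myd88 and Map3k7, which have a match to a motif of immune transcription factors. They are from RefSeq, build GRCm38.p6, 5′ to 3′ on the strand of the gene; capitals mark a motif match. Irak2 lies at chr6:113638217-113638466 (plus strand), Irak3 at chr10:120201598-120201847 (minus strand, 1 of 2 annotated starts), Myd88 at chr9:119340019-119340268 (minus strand) and Map3k7 at chr4:31963857-31964106 (plus strand).
Irak2: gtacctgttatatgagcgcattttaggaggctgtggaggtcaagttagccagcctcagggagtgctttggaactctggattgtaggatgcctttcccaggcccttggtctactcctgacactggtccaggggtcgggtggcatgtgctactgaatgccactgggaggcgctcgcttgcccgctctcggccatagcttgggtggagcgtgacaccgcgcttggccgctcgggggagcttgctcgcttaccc
Irak3: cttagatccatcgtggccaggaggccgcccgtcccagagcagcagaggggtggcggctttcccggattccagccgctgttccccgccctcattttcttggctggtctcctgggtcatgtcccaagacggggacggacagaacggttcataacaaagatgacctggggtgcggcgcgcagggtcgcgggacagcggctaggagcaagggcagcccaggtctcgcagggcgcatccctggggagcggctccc
Myd88: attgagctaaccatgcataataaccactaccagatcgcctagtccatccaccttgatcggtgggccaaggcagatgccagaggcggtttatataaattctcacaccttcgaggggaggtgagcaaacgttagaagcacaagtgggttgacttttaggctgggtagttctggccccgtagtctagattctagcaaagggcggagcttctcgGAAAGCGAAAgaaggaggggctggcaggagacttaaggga
Map3k7: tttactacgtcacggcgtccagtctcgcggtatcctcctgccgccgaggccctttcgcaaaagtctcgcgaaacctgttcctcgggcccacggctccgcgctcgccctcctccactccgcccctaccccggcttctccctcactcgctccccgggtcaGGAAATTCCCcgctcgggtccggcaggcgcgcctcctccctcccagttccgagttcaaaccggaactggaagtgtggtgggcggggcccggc

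A set of 3 motifs was searched on both strands of 32851 promoter windows of this length: the kappaB consensus of NF-kappaB, the core of the interferon-stimulated response element (GAAANNGAAA) and the AP-1 site (TGANTCA). For the members, 12 windows were taken, which stood for 9 of the 10 genes, and 4 of these windows had a match. Member windows on chromosome 18, which carries Ticam2, were left out. The Myd88 window has the interferon element core 40 to 31 bases before the start, a motif in 2.98% of all windows. The Map3k7 window has a kappaB match on the opposite strand 92 to 83 bases before the start, and both Irak1 windows have a kappaB match, a motif in 7.25% of all windows. No window of a member holds the AP-1 letters, which 6.75% of all windows hold. These matches describe letters in these windows and say nothing of binding.

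Of the 23 probes, 21 were measured, that is, had a detection p under 0.01 on at least 2 of the 4 arrays, and 20 of these were detected on all 4. All 9 genes had at least 1 measured probe. The other 2 probes are for Traf6; on the linear scale before normalization ILMN_1239417 read 147, 146, 101 and 100 and ILMN_1246274 read 130, 111, 116 and 102 on wild type arrays 1 and 2 and knockout arrays 1 and 2. Neither reached the detection limit on any array, while the remaining 3 Traf6 probes were above it on all 4. The median signal of all probes was between 109.0 and 167.1 per array, highest on wild type array 1 and lowest on knockout array 2, so comparisons were made after normalization, on the log2 scale. The knockout arrays read Anpep, the targeted gene, 5.33-fold lower (log2 change -2.41 ± 0.19 SE, limma adjusted p = 0.0236). Both still had it above background, at log2 intensities of 11.12 and 11.03. Where its single probe lies relative to the deleted part is not given, so the lower reading checks the labels only in part. None of the 9 genes lies on chromosome 7, which carries Anpep.

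No member differed between knockout and wild type macrophages at the threshold of 0.05 on the adjusted p (0 of 21 probes, limma, against 0.0941% of the 14881 measured probes). In bulk RNA, fewer cells of a type and less RNA per cell cannot be told apart. At an unadjusted p under 0.05 there was 1 of 21 probes (4.76%), against 9.07% of all measured probes. With 21 probes, several of them of the same gene, this share is coarse, and its difference from the background was not tested. The log2 changes ran from -0.66 to 0.69, with 10 probes higher and 11 lower by mean, and their median was -0.03 beside 0.01 for all measured probes. The adjusted p-values ranged from 0.422 to 0.991. The median absolute change was 0.17 for the members and 0.19 for all measured probes.

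**Figure D1:**
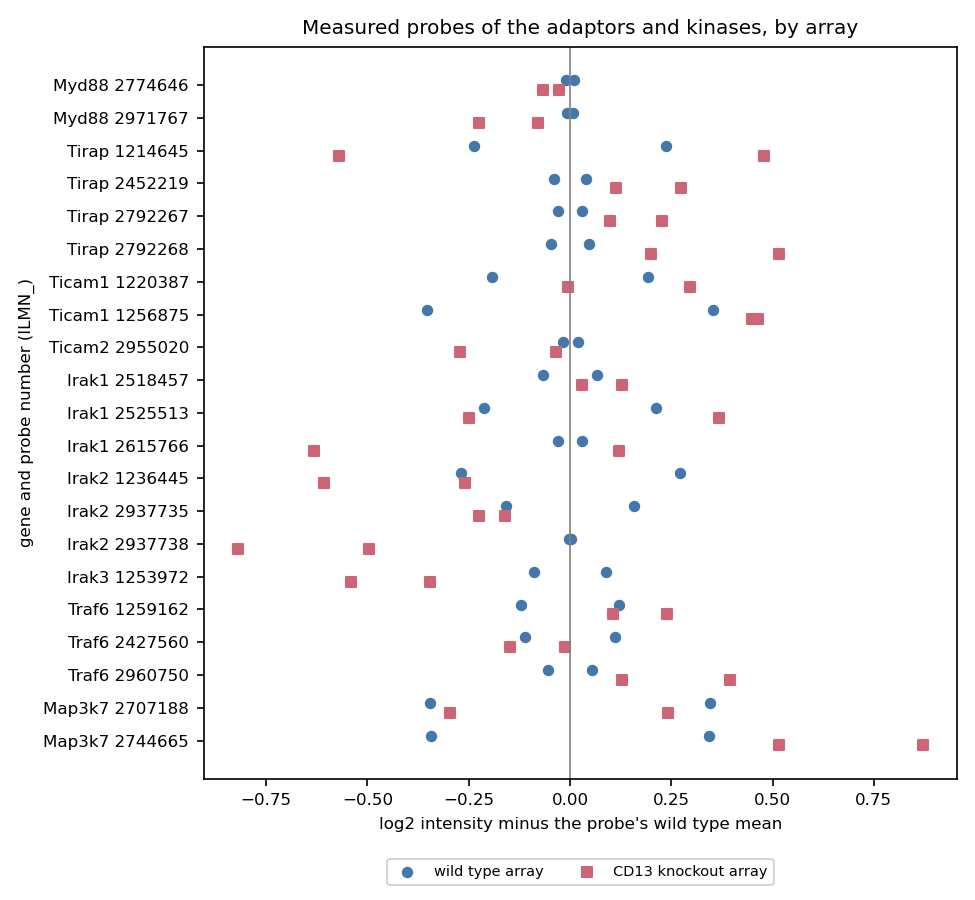
Log2 intensity of each of the 21 measured probes on each array, minus the mean of that probe on the 2 wild type arrays (horizontal axis, log2 units), with circles for wild type and squares for CD13 knockout. The knockout arrays of Irak3 and of Irak2 probe ILMN_2937738 lie to the left of both wild type arrays, those of 3 Tirap probes lie to the right, and the arrays of all 3 Irak1 probes are mixed.

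The 2 knockout arrays lay entirely to one side of the 2 wild type arrays for 12 of 21 probes (57.1%), against 39.5% of all measured probes. They were 6 probes on the higher side, where the background is 20.5%, and 6 on the lower side, where it is 19.1%. These 12 probes stand for 8 genes, and probes of the same gene are not independent. With 2 arrays in each group, the smallest two-sided p that an exact permutation test allows is 0.333, so no single probe can pass 0.05 in that way. The change exceeded the gap between the arrays of both groups for 8 of 21 probes, and did so for 26.6% of all measured probes.

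Among the adaptors, Myd88 had small changes on both of its probes. Its probe ILMN_2971767 read a log2 intensity of 12.76 and 12.77 in wild type against 12.54 and 12.68 in the knockout, a change of -0.15 ± 0.18 (SE, 2 arrays per group, limma adjusted p = 0.871). Its probe ILMN_2774646 read 10.30 and 10.28 in wild type against 10.27 and 10.23 in the knockout, a change of -0.05 ± 0.18 (adjusted p = 0.968). Both knockout arrays were below both wild type arrays for each probe, by amounts smaller than the standard error. The 95% interval of the change was -0.61 to 0.30 for the first probe and -0.49 to 0.39 for the second.

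Tirap is the sorting adaptor that brings Myd88 to Tlr2 and Tlr4 at the plasma membrane. Of its 4 probes, 3 had both knockout arrays above both wild type arrays. ILMN_2792268 read 8.92 and 9.01 in wild type against 9.17 and 9.48 in the knockout, a log2 change of 0.36 ± 0.20 (limma adjusted p = 0.682). ILMN_2452219 read 9.94 and 9.86 against 10.01 and 10.17 (0.19 ± 0.19), and ILMN_2792267 read 9.08 and 9.14 against 9.21 and 9.34 (0.16 ± 0.18). On all 3, knockout array 2 gave the highest value. The remaining probe, ILMN_1214645, was above background on 1 array of each group, read 6.59 and 6.12 against 5.78 and 6.83, and had a change of -0.05 ± 0.38.

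Ticam1 had a higher mean in the knockout on both of its probes. ILMN_1256875 read 8.06 and 7.36 in wild type against 8.17 and 8.16 in the knockout, a log2 change of 0.46 ± 0.27 (limma adjusted p = 0.703). Wild type array 2 was well below the other 3 arrays, and without it the change was 0.10. ILMN_1220387 read 9.19 and 8.81 against 9.0 and 9.30 (0.15 ± 0.23), and the groups overlapped. Ticam2, the bridge between Tlr4 and Ticam1, read 10.27 and 10.31 in wild type against 10.25 and 10.02 in the knockout on its single probe, a change of -0.15 ± 0.19 (adjusted p = 0.875), with the knockout arrays just below the wild type arrays. Whether the adaptors differ from each other in their change was not tested.

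The IRAK family held the lowest values of the group. Irak2, which takes part in the Myd88 complex and sustains the later response, had a lower mean in the knockout on all 3 of its probes. ILMN_2937738 read 11.52 and 11.51 in wild type against 11.02 and 10.69 in the knockout, a log2 change of -0.66 ± 0.20, or 1.58-fold lower (limma adjusted p = 0.422, unadjusted p = 0.0182). Both knockout arrays were below the wild type arrays, which lay close together. This was the single member probe whose 95% interval, -1.16 to -0.16, left out 0, and 4.29% of all measured probes had a smaller p.

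The other Irak2 probes had smaller changes. ILMN_2937735, assigned to the same transcript, read 11.93 and 11.62 in wild type against 11.55 and 11.61 in the knockout (-0.19 ± 0.20). Its knockout arrays were below both wild type arrays, with the nearest pair almost level. ILMN_1236445, assigned to a separate cDNA clone, read 9.25 and 8.71 against 8.72 and 8.38 (-0.43 ± 0.26), and the groups overlapped. These 2 probes depended on wild type array 1: without it their changes were -0.03 and -0.16, while that of ILMN_2937738 was -0.66.

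Irak3, also called IRAK-M, is found mainly in monocytes and macrophages and restrains signalling from the Myd88 complex. Its single probe, ILMN_1253972, read 10.26 and 10.08 in wild type against 9.63 and 9.83 in the knockout. Both knockout arrays were below both wild type arrays, a log2 change of -0.44 ± 0.19, or 1.36-fold lower (limma adjusted p = 0.576). The 95% interval was -0.92 to 0.04. The signals before normalization were 1829 and 1216 in wild type against 812 and 698 in the knockout. These also carry the brightness of each array, whose median signal was highest on wild type array 1 and lowest on knockout array 2.

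Irak1, the kinase that Irak4 phosphorylates in the complex and that engages Traf6, gave no direction. ILMN_2518457 read 9.89 and 9.76 in wild type against 9.85 and 9.95 in the knockout (0.08 ± 0.19). ILMN_2525513 read 8.48 and 8.91 against 8.45 and 9.06 (0.06 ± 0.28), and ILMN_2615766 read 7.97 and 7.91 against 7.30 and 8.06 (-0.26 ± 0.28). The groups overlapped on all 3 probes, and Irak1 was the single gene of the 9 with no separated probe.

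**Figure D2:**
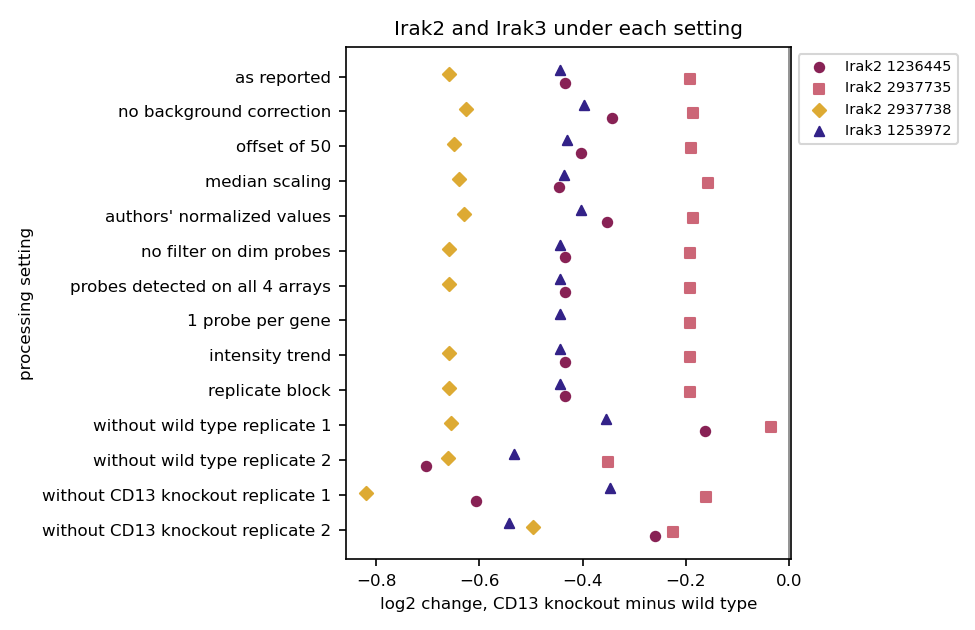
Log2 change in CD13 knockout against wild type (horizontal axis) of the 3 Irak2 probes and the Irak3 probe under the reported processing and 13 other settings (vertical axis), of which 1 probe per gene holds a single Irak2 probe. The values remain below 0 in each setting tested; ILMN_2937738 spans -0.82 to -0.50, Irak3 -0.54 to -0.35, and ILMN_2937735 -0.35 to -0.03.

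Traf6, the ubiquitin ligase below the IRAK proteins, had a higher mean on 2 of 3 measured probes. ILMN_2960750 read 11.03 and 11.14 in wild type against 11.48 and 11.22 in the knockout, a log2 change of 0.26 ± 0.20 (limma adjusted p = 0.771), with both knockout arrays above the wild type arrays. ILMN_1259162 read 8.50 and 8.25 against 8.61 and 8.48 (0.17 ± 0.20), and ILMN_2427560 read 9.41 and 9.63 against 9.51 and 9.37 (-0.08 ± 0.19). The groups overlapped on the latter 2 probes.

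Map3k7, the kinase that Traf6 activates, gave the highest change of the group on one probe and nearly none on the other. ILMN_2744665 read 7.45 and 6.76 in wild type against 7.97 and 7.62 in the knockout, a log2 change of 0.69 ± 0.29, or 1.62-fold higher (limma adjusted p = 0.557, 95% interval -0.02 to 1.41). Both knockout arrays were above both wild type arrays, yet the gap between the wild type arrays was about as large as the change. Without wild type array 2 the change was 0.35, and without wild type array 1 it was 1.04. It was 0.41 without background correction and 0.43 with the authors' values. The probe was dim: the lowest detected signal on wild type array 2 was 6.31. ILMN_2707188 read 7.21 and 7.90 against 7.26 and 7.79 (-0.03 ± 0.31). The probes are assigned to different transcript records, and their changes disagreed.

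ILMN_2744665 also had the widest range of any measured member over the 4 arrays, 1.21 log2 units. Of 8229 other named genes, those nearest to its pattern by Euclidean distance of mean-centred log2 values were Gabrg3 (0.08), Fblim1 (0.13) and Ttc3 (0.14). Their log2 changes were 0.64, 0.65 and 0.65, and none passed. A distance over 4 arrays is a description of these arrays.

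For the size of change that these arrays allow, the standard error of the members ran from 0.18 to 0.38 with a median of 0.20, beside 0.21 for all measured probes. The 95% interval stayed within a 2-fold change in either direction for 17 of 21 probes. It reached past 2-fold lower for Irak2 probes ILMN_2937738 and ILMN_1236445 (-1.07), and past 2-fold higher for Ticam1 probe ILMN_1256875 (1.13) and Map3k7 probe ILMN_2744665. All probes of Myd88, Tirap, Ticam2, Irak1, Irak3 and Traf6 that were measured had intervals within 2-fold, unadjusted for the number of probes. That of Tirap ILMN_1214645, above background on 1 array of each group, only just did so (-0.99 to 0.90). A p above the threshold does not show that levels were equal.

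**Figure D3:**
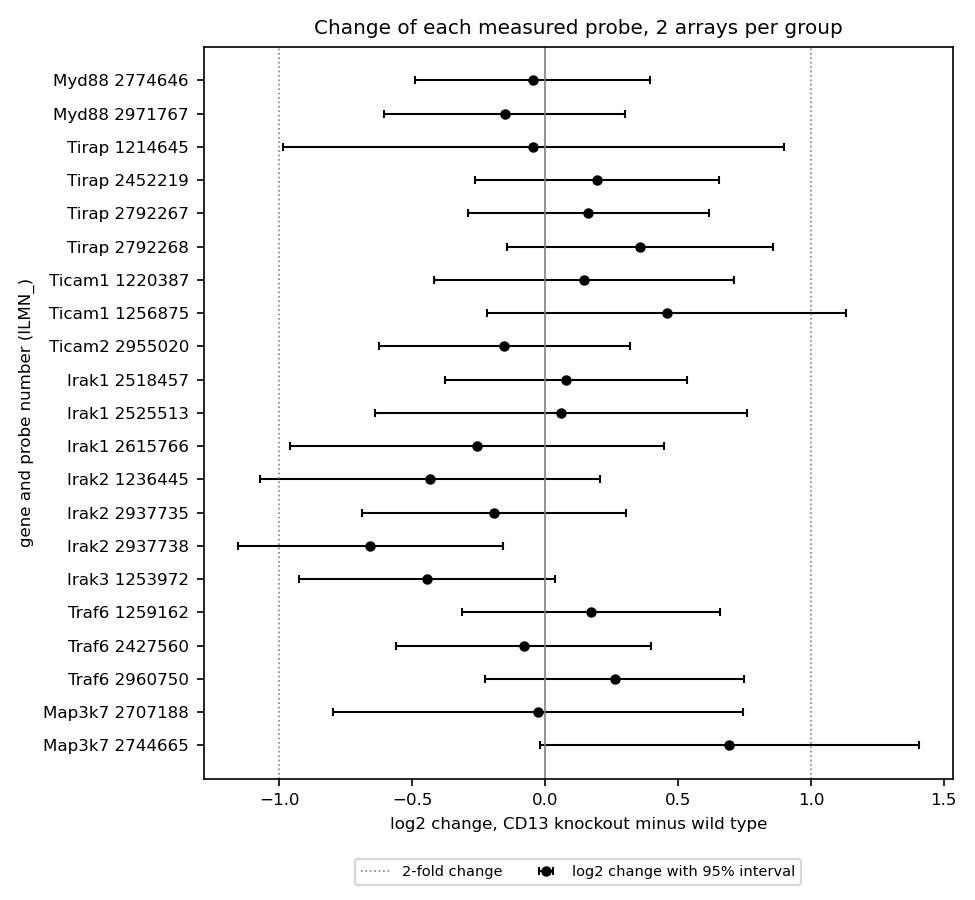
Log2 change of each of the 21 measured probes in CD13 knockout against wild type (horizontal axis), with the 95% interval of the limma fit as bars and dotted lines at a 2-fold change. All intervals except that of Irak2 probe ILMN_2937738 cross 0, and 17 of 21 lie between the dotted lines.

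The genes around the members were described from 7 lists of the path with 104 entries, of which 73 were measured; they were chosen with earlier results of these data known, and a gene with several probes was represented by the one with the highest mean. Of 12 measured Toll-like receptors and co-receptors, 0 passed and 7 were lower by mean, the median log2 change being -0.13. At an unadjusted p under 0.05, 1 of these 12 receptors is counted, beside 9.07% of all measured probes. Both knockout arrays were below both wild type arrays for 5 of the 12 and above them for 1, beside 19.1% and 20.5% of all measured probes. Tlr2, which senses bacterial lipopeptides, read 14.03 and 14.10 in wild type against 13.54 and 13.49 in the knockout (-0.55 ± 0.18, limma adjusted p = 0.445), and Ly86, the partner of Cd180, had a change of 0.55 ± 0.26 (adjusted p = 0.604). Of the interleukin-1 family receptors that use Myd88, 1 of 6 was measured, Il1rap, the shared accessory chain (0.05 ± 0.24). Il1r1, Il18r1, Il18rap and Il1rl2 were not above the detection limit on 2 arrays.

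Below the receptors, 0 of 11 measured ubiquitin ligases and partners of Traf6 passed, with 7 higher and 4 lower by mean and a median of 0.03. An unadjusted p under 0.05 was found for 0 of the 11, beside 9.07% of all measured probes. Both knockout arrays were above both wild type arrays for 2 of the 11 and below them for 0, beside 20.5% and 19.1%. Ecsit, a Traf6-binding adaptor, had a change of 0.35 ± 0.20 (limma adjusted p = 0.696), and Birc3, an inhibitor-of-apoptosis ligase above background on 1 of 2 knockout arrays, one of -0.58 ± 0.44 (adjusted p = 0.774). Of 12 measured partners of Map3k7 and kinases below it, 0 passed, 1 had an unadjusted p under 0.05, 8 were higher by mean and the median was 0.09. Both knockout arrays were above both wild type arrays for 1 of the 12 and below them for 2. The shares of all measured probes given for the 11 apply to these counts as well. Map3k8, the kinase of the ERK branch, read 11.34 and 11.23 in wild type against 10.74 and 10.70 in the knockout (-0.57 ± 0.18, adjusted p = 0.44). Tab1, a Map3k7-binding subunit, had a change of 0.22 ± 0.19.

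In the interferon branch below Ticam1, 0 of 8 measured genes passed, and 0 had an unadjusted p under 0.05, beside 9.07% of all measured probes. By mean 4 were higher and 4 lower, and the median was 0.08. Irf7, itself an interferon-inducible regulator of interferon genes, read 9.03 and 8.58 in wild type against 7.70 and 8.49 in the knockout (-0.71 ± 0.32, limma adjusted p = 0.586). Tradd, an adaptor of death-domain complexes, had a change of 0.55 ± 0.29 (adjusted p = 0.655). Both knockout arrays were above both wild type arrays for 4 of the 8 genes and below them for 1, beside 20.5% and 19.1% of all measured probes.

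Among 12 measured negative regulators, 1 passed downward, beside 0.0941% of all measured probes in either direction. By mean 10 were lower, beside 47.2% of all measured named genes, and the median was -0.25. An unadjusted p under 0.05 was found for 1 of the 12, and for 9.07% of all measured probes. Both knockout arrays were below both wild type arrays for 6 of the 12, and for 19.1% of all measured probes. The gene that passed was Trim30a, which in mouse macrophages is known to promote degradation of the Map3k7 partners Tab2 and Tab3. It read 9.74 and 8.82 in wild type. Neither knockout array had it above background, so it passed the detection filter through the wild type arrays alone. The difference was at least 6.87-fold lower, the fold being set against the lowest detected signal of each knockout array. Its limma adjusted p of 0.0236 uses knockout values below that limit. Trim30a lies on the chromosome of Anpep, as do Irf7 and Gabrg3 named above, and has close paralogs whose transcripts the probe may also read. Tnfaip3, the ubiquitin-editing enzyme A20, had a change of -0.44 ± 0.18 and Inpp5d, a lipid phosphatase, of -0.39 ± 0.18, with adjusted p-values of 0.557 and 0.608.

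Among 17 measured target genes of the path, 0 passed, 15 were lower by mean, and the median was -0.45. Il6, Ptgs2, Ifnb1 and Ifit1 were not measured, and Nfkb1 and Il12b were not named on the array. Both knockout arrays were below both wild type arrays for 12 of the 17, and for 19.1% of all measured probes. That share covers probes of any brightness, while each listed gene stands by its brightest probe, so the units differ. An unadjusted p under 0.05 was found for 4 of the 17, and for 9.07% of all measured probes. Nfkbiz, an inducible NF-kappaB cofactor, read 12.13 and 12.28 in wild type against 11.09 and 11.36 in the knockout (-0.98 ± 0.20, limma adjusted p = 0.275). Il1b, which encodes interleukin-1 beta, read 12.39 and 12.48 against 11.81 and 11.47 (-0.79 ± 0.21, adjusted p = 0.367). For comparison, 47.2% of all 8238 measured named genes were lower by mean, and their median was 0.02. The difference between the targets and the adaptors and kinases above them was not tested.

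**Figure D4:**
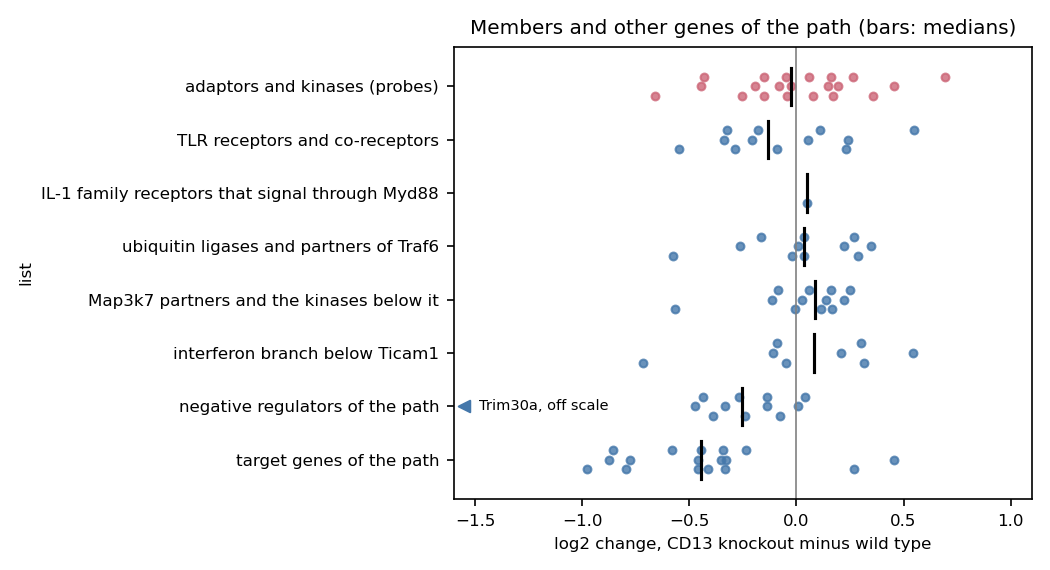
Log2 change in CD13 knockout against wild type (horizontal axis) of the 21 measured member probes and of the measured genes in 7 lists of the path (1 point each), with a bar at each median. The member probes centre on -0.03 and the target genes on -0.45; Trim30a lies off scale and is marked by an arrow.

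Markers of the cells in the cavity also differed between arrays. All 6 macrophage markers named on the array were measured, 0 passed and 0 had an unadjusted p under 0.05. Both knockout arrays were below both wild type arrays for 4 of them, beside 19.1% of all measured probes, and 2 were higher by mean. On wild type arrays 1 and 2 their normalized intensities added up to 123518 and 127652, and on knockout arrays 1 and 2 to 115648 and 109659. These sums were carried mostly by Lyz2 and Cd14. The 6 markers of large peritoneal macrophages, the main macrophages of the resting cavity, were all measured. By mean 6 were lower, beside 47.2% of all measured named genes, 0 passed and 4 had an unadjusted p under 0.05. Of all measured probes 9.07% had such a p, a share that applies to the other marker counts here as well. Both knockout arrays were below both wild type arrays for 4 of the 6, and the groups overlapped for Icam2 and Gata6. The sum came to 7064 and 16292 in wild type against 5455 and 4416 in the knockout. The 3 measured B cell markers went both ways: Cd79b (log2 change -1.02) and Ms4a1, which neither knockout array had above background (at least 1.61-fold lower), had both knockout arrays below both wild type arrays, and Cd22 (0.93) had both above; these genes and Ltf below were named after their values were seen. All 3 had an unadjusted p under 0.05, that of Ms4a1 with knockout values below background, and 0 passed. The sum, carried mostly by Cd79b, reached 2559 and 3253 in wild type against 1506 and 2446 in the knockout. None of the measured mast or dendritic cell markers had an unadjusted p under 0.05. The sum of 3 mast cell markers was 318 and 434 against 186 and 366, and that of 2 dendritic cell markers 436 and 793 against 465 and 341. Of the T and NK cell markers Lat alone was measured (116 and 262 against 830 and 625, unadjusted p under 0.05, not passing), with Cd3e, Cd3d, Klrb1c and Ncr1 below the limit. The sum of 3 neutrophil markers was 1036 and 2642 against 2612 and 2250; 1 of them, Ltf, had an unadjusted p under 0.05 (log2 change 2.00, above background on 1 of 2 wild type arrays) and 0 passed, with Camp, Ngp, Retnlg and Mpo below the limit, and 0 of 4 mesothelial markers was measured. Cd22, Lat and Itgam, the last from the large peritoneal macrophage list, lie on the chromosome of Anpep. The macrophage markers named here were also picked after their values were seen. The part of the marker shifts in the values of Irak2, Irak3, Map3k7 and the target genes was not tested.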

How the data were processed

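Illumina BeadChip signals were read for 4 arrays, 2 of wild type and 2 of CD13 knockout peritoneal macrophages. The deposited signal table holds average bead intensity per probe on a linear scale, not normalized between arrays, with the authors' detection p-value beside each. A second deposited table holds intensity values that GenomeStudio had quantile normalized, according to the study's own text; it was used as an alternative. The GenomeStudio version, its background setting and the genome build are not given in the sources used here.

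From these, neqc (limma 3.58.1, R 4.3.3) removed background by normexp with the detection p-values, added an offset of 16, applied quantile normalization and took log2. Probes with a detection p under 0.01 on at least 2 arrays were kept, 14881 of 45281. Of all probes 34885 had 1 gene symbol, 18 several and 10378 none; 34807 matched the RefSeq table by gene ID. The comparison of knockout with wild type used lmFit, then eBayes, on all kept probes; p-values were Benjamini-Hochberg adjusted and 0.05 was the threshold. Every kept probe was fitted, since members were chosen by probe. The procedure was tested on simulated data.

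The members and lists were chosen with earlier results of these data known. The text names all members, Anpep, the passing genes and the 2 with the smallest unadjusted p of each list, and the 3 genes nearest to the member of widest range. Alternatives changed the background correction, offset, normalization, source of values, filter, probes per gene, variance model, replicate block and each array in turn. The number of arrays limits the precision. The replicate numbers were not taken as pairs: the labels tie them to no shared source, and the correlation of the replicate differences of both groups was 0.0155.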

Additional observations from a re-analysis of the deposited data

How the results depend on the processing

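In 13 other settings 0 member probes passed, higher or lower, the lowest limma adjusted p being 0.255 (Irak2 ILMN_2937738 with an intensity trend); with the replicate block 0 passed as well, and over all probes it called 7 higher and 12 lower, against 5 and 9. Of 260 values, 249 kept their sign and 11 reversed; none of the latter had passed. Tirap ILMN_1214645 was 0.0192 with median scaling. Leaving out single arrays gave -0.57 to 0.48 for that probe (reversed values from 0.19), -0.0464 to 0.337 for Ticam1 ILMN_1220387 (also -0.00500), -0.25 to 0.37 for Irak1 ILMN_2525513 (also -0.15), -0.63 to 0.12 for Irak1 ILMN_2615766, -0.191 to 0.0306 for Traf6 ILMN_2427560 and -0.37 to 0.32 for Map3k7 ILMN_2707188 (also 0.24); there, a group of 1 array is assumed to vary like the remaining group. The count of 12 of 21 probes without overlap was 6 with 1 probe for each of the 9 genes, where fewer probes are tested. It was 11 with median scaling and 14 to 19 without single arrays, where fewer values can overlap. The share over all probes is not given for these settings. Measured probes numbered 21 with a detection p under 0.05 and 20 when all 4 arrays were required. Over all probes, the 5 higher and 9 lower became 9 and 18 on uncorrected signals, 5 and 13 when the offset was 50, 5 and 5 with 1 probe per gene, 11 and 21 with the authors' values, 3 and 4 without the filter, 2 and 8 for probes on all 4 arrays, 10 and 17 with an intensity trend, and 3 to 7 and 3 to 8 without single arrays. The median of the target genes was between -0.58 and -0.34 and that of the negative regulators between -0.29 and -0.14; those of the other 5 lists changed sign in 1 or 2 settings each.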
